A study of Mus musculus and Homo sapiens with 9 samples.

Results

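Molecular chaperones are proteins that bind unfolded or partly folded polypeptides and help them reach, keep or regain their native structure. The HSP70 proteins (HSPA and HSPH symbols) hold short unfolded stretches in cycles of ATP hydrolysis, and the J-domain proteins (DNAJA, DNAJB and DNAJC) deliver substrates to them and trigger that hydrolysis. The HSP90 proteins act later, on nearly folded clients such as kinases and steroid receptors, the small heat shock proteins (HSPB) hold aggregating proteins without ATP, and the chaperonins enclose a client in a ring-shaped chamber. The cytosolic chaperonin is a double ring of paralogous subunits, encoded by TCP1 and the CCT genes, which folds actin and tubulin, and the mitochondrial chaperonin consists of HSPD1 and its lid HSPE1. A subset of these genes is induced by heat through the transcription factor HSF1, whereas others are needed in every growing cell.

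The genes described here are the protein-coding genes whose symbols begin with HSPA, HSPB, HSPD, HSPE or HSPH and a number, with HSP90, with DNAJA, DNAJB or DNAJC and a number, or with CCT2 to CCT8, together with TCP1. Symbols alone chose them and the rule used no measured value, though it was set with earlier results of these data known. There were 84 such genes among 56105 annotated rows in the human table and 82 among 42462 in the mouse table, where Hspa14 had no row that was used here. By family, the human genes comprised 15 HSP70 and HSP110 genes, 3 HSP90 genes, 4 J-domain A, 12 J-domain B and 29 J-domain C genes, 10 cytosolic and 3 mitochondrial chaperonin genes and 8 small heat shock genes, and the mouse genes comprised 14, 3, 4, 13, 28, 10, 2 and 8. Of the human genes, 3 were read-through genes that join a member to its neighbour (DNAJC25-GNG10, HSPE1-MOB4 and HSPB2-C11orf52). The low-count filter left 68 human and 69 mouse genes for testing, and 16 human and 12 mouse genes were too low to be tested, of which 9 and 7 had no count in any library.

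RNA-seq libraries came from J.gamma1, a human T cell acute lymphoblastic leukemia line derived from Jurkat cells, and from normal mouse T cells. The J.gamma1 cells carried a control hairpin (sh-NC, 2 libraries) or a hairpin against IRF2BP2 (sh-IRF2BP2, 2 libraries), delivered in the pLKO.1 lentiviral vector; which hairpin was sequenced is not given in the sources used here. CD3+ T cells were sorted with magnetic beads from the spleens of knockout mice (Vav-iCre+/-;Irf2bp2 fl/fl, 2 libraries) and of controls (3 libraries), which the labels call wild type and the methods Vav-iCre-/-;Irf2bp2 fl/fl. Vav-iCre is active in the whole hematopoietic lineage, so the gene was deleted in all blood cells and not in T cells alone. The labels do not say whether replicates were separate cultures or animals, so p-values measure the spread between these libraries, which may be technical.

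Total counts lay between 26648204 and 31120236 in the human libraries and between 16668577 and 37177523 in the mouse libraries, where control replicate 3 was the shallowest. IRF2BP2 stood at 199 to 204 CPM (the read count scaled to library size, with sizes adjusted by TMM) in sh-NC and 79.0 to 93.8 CPM in sh-IRF2BP2, and mouse Irf2bp2 at 112 to 127 CPM in controls and 0 counts in both knockout libraries, a level that allows up to 3 counts in each. The 10 T cell markers summed to 1701 to 1901 CPM in sh-NC and 1627 to 1745 CPM in sh-IRF2BP2, and to 4087 to 5015 CPM in control and 3190 to 3420 CPM in knockout T cells. In the mouse libraries the 11 erythroid markers found summed to 676 to 2331 CPM in controls and 4639 to 6484 CPM in knockouts, with 5 called higher, and the 6 proliferation markers to 103 to 200 CPM and 739 to 812 CPM, with 2 called higher; in these bulk samples fewer cells of a type and less RNA per cell cannot be told apart. In the mouse libraries B cell markers summed to 33.5 to 245 CPM in controls and 34.9 to 99.2 CPM in knockouts, plasma cell markers to 414 to 1156 CPM and 1142 to 1507 CPM, and myeloid markers to 37.2 to 359 CPM and 70.7 to 117 CPM. The part of these cells in the values of the chaperone genes was not tested.

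The control J.gamma1 cells held a large pool of chaperone transcripts. The 84 genes summed to 19993 and 18174.5 CPM in the 2 sh-NC libraries, of which HSP90 genes gave 6763 and 5734 CPM, the cytosolic chaperonin 4958 and 4809 CPM and the HSP70 family 3896 and 3693 CPM. Per kilobase of merged exons, the level was highest for HSP90AB1, the constitutive cytosolic HSP90 (901 CPM per kb, SD 109, n = 2), followed by HSP90AA1, its heat-inducible paralog (586, SD 76.0), and HSPA8, the constitutive cytosolic HSP70 (435, SD 6.45). HSP90AB1 and HSP90AA1 differed by more than their SDs. CCT3 (186), CCT7 (183), HSPD1 (169), CCT4 (168) and TCP1 (168) followed within a narrow range. With the length of the principal transcript in its place, chosen after the data were seen, HSP90AB1 stayed first at 1051 CPM per kb and HSPA8 (931) and HSP90AA1 (925) changed places, with all 3 closer together, and HSPD1 came next (573).

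The heat-inducible HSP70 genes had few counts in J.gamma1. HSPA1A had 28 and 49 counts in sh-NC and 43 and 43 in sh-IRF2BP2, and HSPA1B had 36 and 59 against 58 and 65. These 2 genes are almost identical, so their reads could be split between them arbitrarily, and the pair together stood at 2.47 and 3.48 CPM against 3.47 and 3.66 CPM. A long non-coding RNA gene on the same strand also covers 36.55% of the exon bases of HSPA1B. The methods do not say how reads that fit more than 1 gene were counted, so the pair may be undercounted. HSPA6, another strictly inducible HSP70, had 12 and 30 counts against 12 and 13. The levels of this inducible group were thus low in all 4 libraries, where HSPA8 stood at 1822 to 2129.7 CPM.

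Knockdown of IRF2BP2 lowered 6 of the 68 tested chaperone genes and raised 1. A call required edgeR's quasi-likelihood test to give an adjusted p under 0.05 (Benjamini-Hochberg over all 15819 genes tested) and the log2 fold change to reach 0.5 in either direction. The 6 lower genes made up 8.82% of the tested members, against 5.01% of all genes, and the 1 higher gene 1.47%, against 5.46%. The fold threshold changed neither count, and without it 5.32% of all genes were lower and 5.83% higher. The median log2 fold change was -0.03 over the members and 0.01 over all genes. Groups did not overlap for 26 members that were lower (38.2%, against 28.7% of all genes) and 13 that were higher (19.1%, against 29.6%). The summed level of the 84 genes was 17066 and 14854.5 CPM in sh-IRF2BP2, below both sh-NC libraries, and it is dominated by a few abundant genes of the HSP90 and chaperonin families.

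**Figure D1:**
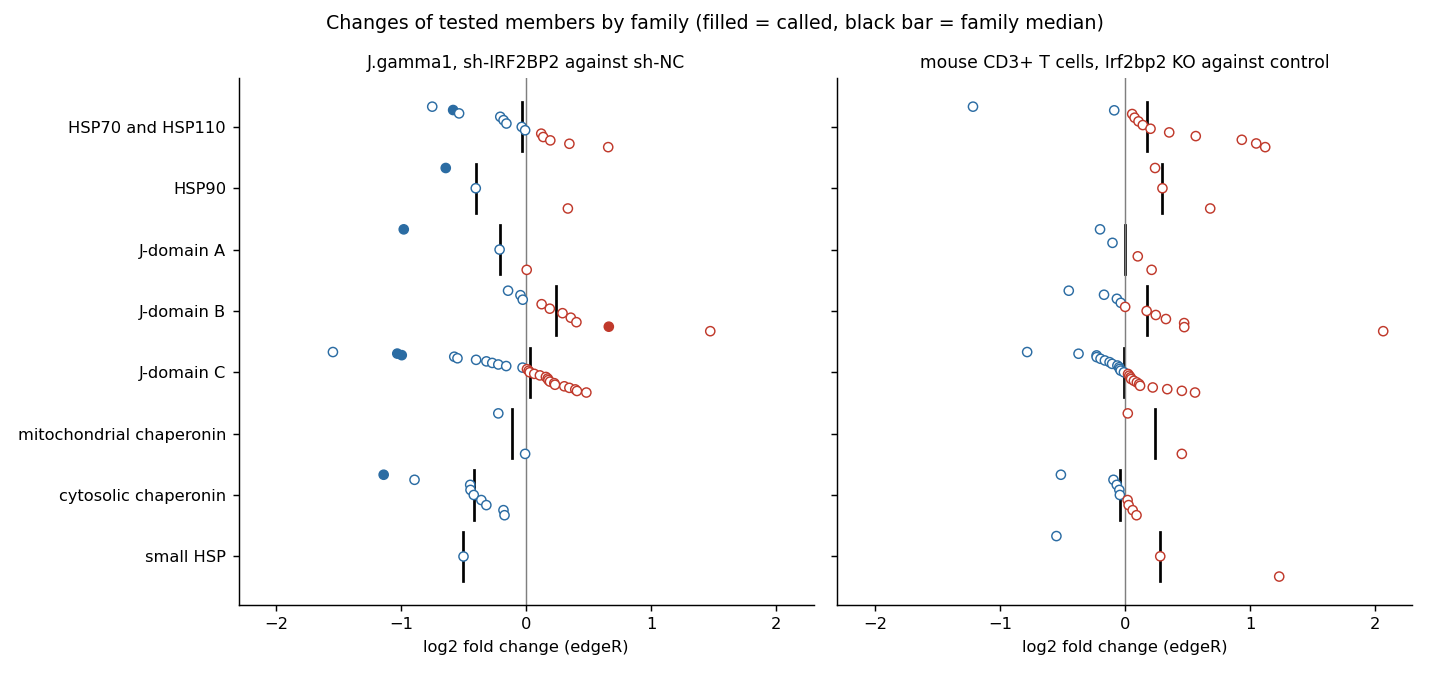
Log2 fold change (x axis) of each tested member by family (y axis) in J.gamma1 cells (left, sh-IRF2BP2 against sh-NC) and mouse T cells (right, Irf2bp2 KO against control); each circle is 1 gene, filled where called lower (blue) or higher (red), open otherwise, and the black bar is the family median. In J.gamma1 all 9 tested genes of the cytosolic chaperonin lie left of 0, with CCT2 at -1.14 the sole filled circle among them, while no circle is filled in the mouse panel.

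The cytosolic chaperonin was lower as a family in sign (9 of 9 tested genes, against 7815 of 15819 genes in all), with CCT2 the sole subunit that passed the test. Without sh-IRF2BP2 replicate 2 the log2 fold change of TCP1 turned to 0.020. CCT2 (ENSG00000166226, chr12:69585426-69601570, hg38, plus strand), which encodes the beta subunit of the ring, stood at 581 and 562 CPM in sh-NC and 285 and 233 CPM in sh-IRF2BP2. The sh-IRF2BP2 libraries lay far below both controls, with a log2 fold change of -1.14 (SE 0.14) and an adjusted p of 0.00356. The other 8 tested genes fell short of the threshold. Groups did not overlap, with the knockdown lower, for 7 of them, an order that 28.7% of all genes showed. CCT4, the delta subunit, had 437 and 469 CPM against 356 and 308 CPM (log2 fold change -0.45, SE 0.13, adjusted p 0.0697).

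CCT6A, the zeta subunit, had 549 and 475 CPM against 417 and 335 CPM (log2 fold change -0.45, adjusted p 0.105). CCT3 (gamma) had 751 and 690 CPM against 590 and 488 CPM (-0.42, adjusted p 0.106). CCT8 (theta) had 547 and 553 CPM against 459 and 399 CPM (-0.36, adjusted p 0.124). In these subunits both knockdown libraries were under both controls, with replicate 2 of sh-IRF2BP2 the lowest each time.

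CCT7 (eta) had 635 and 676 CPM against 562 and 490 CPM (log2 fold change -0.32, adjusted p 0.173). CCT5 (epsilon) had 612 and 590 CPM against 575 and 485 CPM (-0.18, adjusted p 0.439). TCP1, the alpha subunit, was the exception in overlap, with 844 and 793 CPM against 832 and 620 CPM (-0.17, adjusted p 0.546). CCT6B, a testis-enriched paralog of CCT6A, was close to silent at 1.81 and 1.80 CPM against 0.93 and 1.02 CPM (-0.89, adjusted p 0.183). The family summed to 4958 and 4809 CPM in sh-NC and 4077 and 3358 CPM in sh-IRF2BP2, 0.761 times the control mean, and its median log2 fold change was -0.42. The subunits assemble into 1 ring in equal number, yet the fold changes ranged from -1.14 to -0.17; whether CCT2 differed from the other subunits was not tested.

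**Figure D2:**
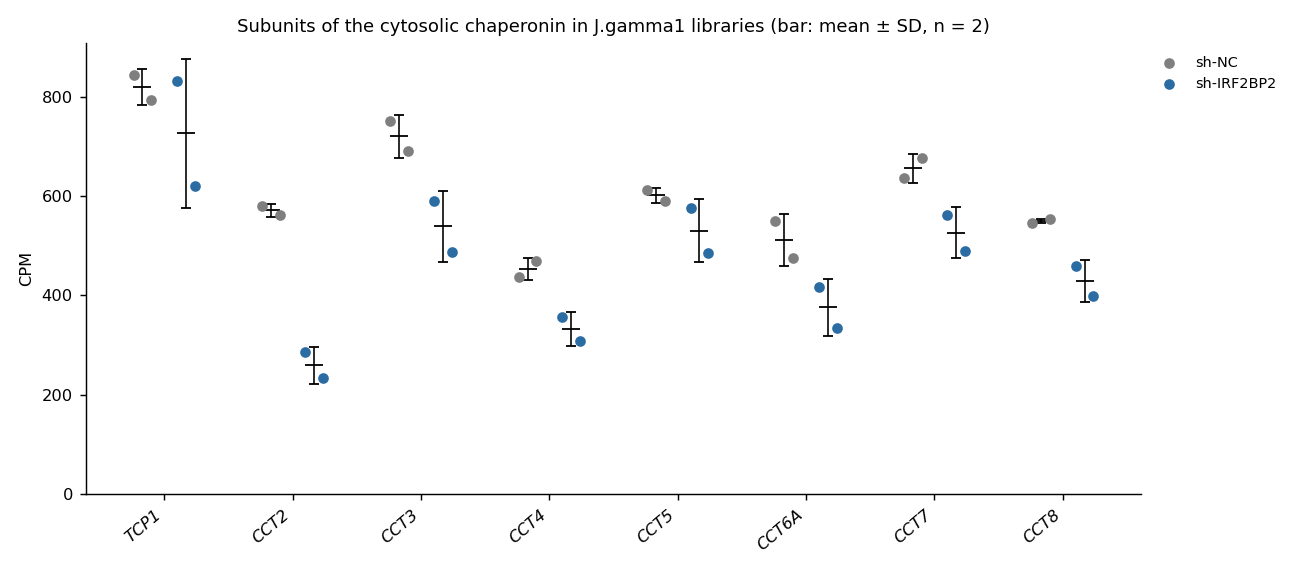
CPM (y axis, from 0) of the 8 ring subunits of the cytosolic chaperonin (x axis) in the 2 sh-NC (grey) and the 2 sh-IRF2BP2 libraries (blue) of J.gamma1 cells; points are libraries and black bars the mean ± SD. CCT2 fell from 562 to 581 CPM to 233 to 285 CPM, whereas the 4 points of TCP1 overlap.

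The 3 HSP90 genes differed in sign. HSP90AB1 (ENSG00000096384, chr6:44246166-44253888, hg38, plus strand) had 2915 and 2456 CPM in sh-NC and 1873 and 1565 CPM in sh-IRF2BP2. It fell by 0.64 on the log2 scale (SE 0.17, adjusted p 0.0462), and this call was lost when either sh-IRF2BP2 library was left out (adjusted p 0.0852 and 0.273), with all rows tested (0.0525) and with rows of as little as 1 count kept (0.0795). The study also measured HSP90AB1 by qPCR after knockdown, as a MYC or E2F target, and reported it lower. HSP90AA1 had 3261 and 2713 CPM against 2476 and 2042 CPM, also without overlap, and did not pass the test (log2 fold change -0.40, SE 0.17, adjusted p 0.173). HSP90B1, the endoplasmic reticulum paralog also called GRP94, had 587 and 564 CPM against 738 and 713 CPM (0.33, SE 0.13, adjusted p 0.132). Both knockdown libraries were above both controls for HSP90B1, the opposite order from the cytosolic HSP90 genes.

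Among the HSP70 and HSP110 genes, 13 of 15 were tested and 1 was called lower, where 5.01% of all genes were called lower. HSPA4 (ENSG00000170606, chr5:133052013-133106449, hg38, plus strand), an HSP110-type protein that serves as nucleotide exchange factor for HSP70, had 370 and 331 CPM in sh-NC and 254 and 214 CPM in sh-IRF2BP2. It fell by 0.58 on the log2 scale (SE 0.14, adjusted p 0.0354), and the call was lost without sh-IRF2BP2 replicate 1 (adjusted p 0.0659) or replicate 2 (adjusted p 0.240) and with rows of as little as 1 count kept (adjusted p 0.0770). Its relatives were not called. HSPH1 had 106 and 91.7 CPM against 98.6 and 97.6 CPM (log2 fold change -0.01, SE 0.12), and HSPA4L had 181 and 166 CPM against 174 and 165 CPM (-0.04, SE 0.12), with overlapping groups in both.

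The abundant HSP70 genes differed by less. HSPA8 had 2085 and 2129.7 CPM against 1956 and 1822 CPM (log2 fold change -0.16, SE 0.14, adjusted p 0.509). HSPA5, the endoplasmic reticulum HSP70 also called BiP, had 487 and 367 CPM against 547 and 429 CPM (0.19, SE 0.18, adjusted p 0.536). HSPA9, the mitochondrial HSP70 also called mortalin, had 450 and 403 CPM against 408 and 331 CPM (-0.21, SE 0.15, adjusted p 0.407). The groups overlapped for HSPA5 and HSPA9, and replicate 2 was below replicate 1 in both conditions. The largest estimates of the family came from barely expressed genes that did not pass the test, HSPA12B (0.66, SE 0.68) and HSPA6 (-0.75, SE 0.59). Leaving out 1 library at a time moved them between 0.12 and 1.60 and between -1.18 and -0.12.

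Of the 68 tested members, 3 were J-domain A, 10 J-domain B and 27 J-domain C genes, and they held 4 of the 7 calls. In A, B and C, 1, 0 and 2 genes were called lower and 0, 1 and 0 higher. Among all genes 5.01% were called lower and 5.46% higher. DNAJA2 (ENSG00000069345, chr16:46955362-46973674, hg38, minus strand), a general cytosolic partner of HSP70, had 99.9 and 106 CPM in sh-NC and 54.2 and 50.1 CPM in sh-IRF2BP2. Both knockdown libraries lay below both controls, with a log2 fold change of -0.98 (SE 0.12) and an adjusted p of 0.00301. Its paralog DNAJA1 stayed at 443 and 399 CPM against 436 and 408 CPM (log2 fold change 0.00, SE 0.13), a value whose sign changed with the scaling and the filter. DNAJA3, the mitochondrial type A protein, had 54.7 and 33.3 CPM against 39.0 and 36.9 CPM (-0.21, SE 0.22), the knockdown values lying between the controls. DNAJA4 was too low for the test, with 12 and 9 counts in sh-NC and 0 and 0 in sh-IRF2BP2.

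DNAJC9 (ENSG00000213551, chr10:73183362-73247255, hg38, minus strand), a histone chaperone that recruits HSP70 to histones H3 and H4, had 173 and 164 CPM in sh-NC and 90.1 and 75.0 CPM in sh-IRF2BP2. The log2 fold change was -1.03 (SE 0.13, adjusted p 0.00398), with no overlap. Exons of FAM149B1 on the opposite strand share 56.5% of its exon bases, and since the strand used in counting is not stated, reads of the 2 genes cannot be told apart there. DNAJC6 (ENSG00000116675, chr1:65248219-65415871, hg38, plus strand), or auxilin, which works with HSC70 to strip clathrin from vesicles, had 42.8 and 33.3 CPM against 18.9 and 19.2 CPM. It fell by 1.00 on the log2 scale (SE 0.16, adjusted p 0.00950). Its ubiquitous counterpart GAK bears no DNAJ symbol and is outside this set.

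DNAJB2 (ENSG00000135924, chr2:219279342-219286898, hg38, plus strand), a J-domain protein with ubiquitin-interacting motifs, was the gene called higher. It had 29.4 and 33.6 CPM in sh-NC and 44.9 and 54.8 CPM in sh-IRF2BP2, with a log2 fold change of 0.66 (SE 0.15, adjusted p 0.0312). Without sh-IRF2BP2 replicate 2 the call was lost (adjusted p 0.163), as it was with rows of as little as 1 count kept (0.0984). The J-domain B family as a whole had 7 of 10 tested genes higher in sign and a median of 0.24. DNAJB6, a suppressor of polyglutamine aggregation, had 135 and 133 CPM against 182 and 172 CPM (0.40, SE 0.11, adjusted p 0.0630).

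DNAJB1, the chief heat-inducible partner of HSP70, had 162 and 205 CPM in sh-NC and 158 and 175 CPM in sh-IRF2BP2 (log2 fold change -0.14, SE 0.15). DNAJB11, an endoplasmic reticulum cofactor of BiP, had 95.5 and 81.4 CPM against 110 and 92.0 CPM (0.19, SE 0.14). DNAJB12, an endoplasmic reticulum membrane protein, had 58.2 and 48.1 CPM against 77.9 and 58.2 CPM (0.36, SE 0.17, and 0.11 to 0.55 with 1 library left out). The groups overlapped in all 3, and DNAJB13, an axonemal protein with 1 and 10 counts against 11 and 20, had the largest estimate of the family (1.47, SE 0.86, and 0.70 to 3.63 with 1 library left out) with no call. DNAJC3, or p58IPK, an inhibitor of the kinase PERK, was named after its values were seen, with 71.3 and 57.4 CPM against 48.0 and 39.9 CPM (-0.55, SE 0.15, adjusted p 0.0602). It was called lower by DESeq2 (adjusted p 0.0229), by edgeR with upper-quartile scaling (0.0365), with at least 10 counts in every library (0.0393) and with counts divided by 2 (0.0430).

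The J-domain C genes were spread on both sides of 0, with 11 of the 27 tested genes lower and 16 higher in sign and a median of 0.03. The splicing-associated DNAJC8 (188 and 195 CPM against 197 and 192 CPM; 0.02, SE 0.12) and the synaptic vesicle and exosome protein DNAJC5 (148 and 142 CPM against 171 and 160 CPM; 0.19, SE 0.12), did not pass the test. The extremes were low in level, DNAJC12 with 12 and 14 counts against 6 and 3 (-1.55, SE 0.69) and DNAJC28 with 25 and 41 counts against 43 and 51 (0.48, SE 0.40).

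**Figure D3:**
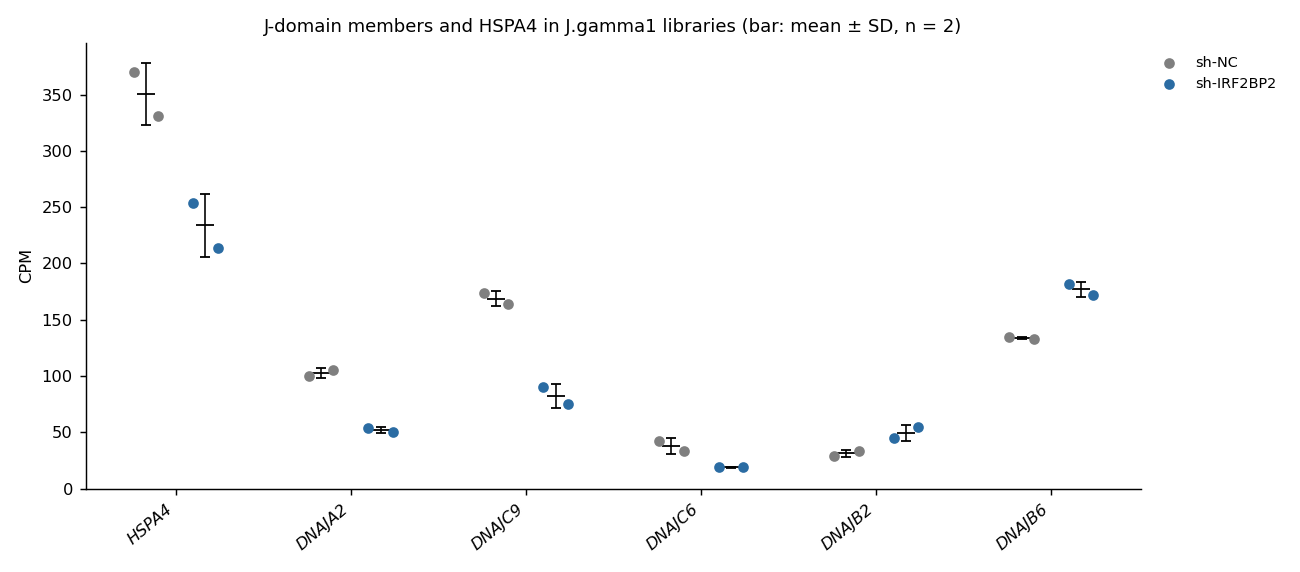
CPM (y axis, from 0) of HSPA4 and 5 J-domain genes (x axis) in the 2 sh-NC (grey) and 2 sh-IRF2BP2 libraries (blue) of J.gamma1 cells; points are libraries and black bars the mean ± SD. HSPA4, DNAJA2, DNAJC9 and DNAJC6 are lower in both knockdown libraries, and DNAJB2 and DNAJB6 higher, DNAJB6 without a call.

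The mitochondrial chaperonin showed no detectable change at this replication. HSPD1, or HSP60, had 1386 and 1188 CPM in sh-NC and 1383 and 1177 CPM in sh-IRF2BP2, nearly the same pair of values (log2 fold change -0.01, SE 0.15). HSPE1, or HSP10, had 140 and 110 CPM against 110 and 104 CPM (-0.22, SE 0.14, adjusted p 0.355). The read-through gene HSPE1-MOB4 had no counts. Among the small heat shock genes HSPB1, or HSP27, was the single gene tested, with 36.7 and 36.3 CPM against 29.0 and 22.5 CPM (-0.50, SE 0.16, adjusted p 0.0803). HSPB6 and HSPB9 had at most 9 counts in a library.

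The co-chaperones and heat shock factors around these families were called at shares near those of all genes on the lower side. Of 45 tested genes in a list of 46, 3 were called lower (6.67%, against 5.01% of all genes) and 1 higher (2.22%, against 5.46%), with a median of -0.07. HSF1, the heat shock factor itself, had 128 and 133 CPM in sh-NC and 93.2 and 87.1 CPM in sh-IRF2BP2, a log2 fold change of -0.53 (SE 0.11, adjusted p 0.0262), a call lost without either sh-IRF2BP2 library (adjusted p 0.104 and 0.185) and with rows of as little as 1 count kept (0.0598). FKBP4, an HSP90 co-chaperone of steroid receptors (-0.54, adjusted p 0.0419), and TRAP1, the mitochondrial HSP90 (-0.51, adjusted p 0.0366), were the other two lower genes. SERPINH1, a collagen chaperone, rose from 12.98 and 16.3 CPM to 32.9 and 35.8 CPM (1.23, adjusted p 0.00469). Among 22 endoplasmic reticulum stress genes, 2 were called lower (9.09%, against 5.01%) and 1 higher (4.55%, against 5.46%). The lectin chaperone CALR (-0.84, adjusted p 0.0118) and SDF2L1, a cofactor of BiP (-1.09, adjusted p 0.0289), were lower and the stress sensor ATF6 (0.64, adjusted p 0.0180) higher, so that within the endoplasmic reticulum CALR fell while HSPA5 and HSP90B1 were not called.

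In mouse splenic T cells no chaperone gene was called between Irf2bp2 knockout and control. Of 69 tested genes, edgeR's quasi-likelihood test called 0 lower and 0 higher, with the adjusted p under 0.05 and the log2 fold change reaching 1 in either direction, and DESeq2 also called 0 and 0. Among all 15350 genes tested, 0.111% were called lower and 2.47% higher, and 0.15% and 2.68% without the fold threshold, where the members again gave none. At an unadjusted p under 0.05, 3 of the 69 tested members were lower (Hspa12a, Dnajb5 and Dnajc15) and 1 higher (Hspa4l). Of all 15350 genes tested, 922 were lower and 1566 higher at that cut-off. The members named here were chosen after their values were seen. Groups did not overlap for 7 members that were lower (10.1%, against 17.8% of all genes) and 10 that were higher (14.5%, against 18.2%). The median log2 fold change was 0.05 over the members and -0.02 over all genes.

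The control libraries differed among themselves in the inducible genes by more than the groups did. Hspa1a had 0.08, 2.24 and 14.1 CPM in control replicates 1 to 3 and 14.8 and 7.21 CPM in the knockouts. Hspa1b had 0.43, 4.45 and 30.1 CPM in the controls and 32.0 and 17.5 CPM in the knockouts. The pair together, whose reads may be split arbitrarily, ran from 0.51 CPM in control replicate 1 to 44.2 CPM in control replicate 3, with 46.7 and 24.7 CPM in the knockouts. The fold changes of 1.05 (SE 1.36) and 1.12 (SE 1.26) carry errors larger than themselves, and over the libraries left out in turn they ran from 0.41 to 3.23 for Hspa1a and from 0.56 to 3.33 for Hspa1b.

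**Figure D4:**
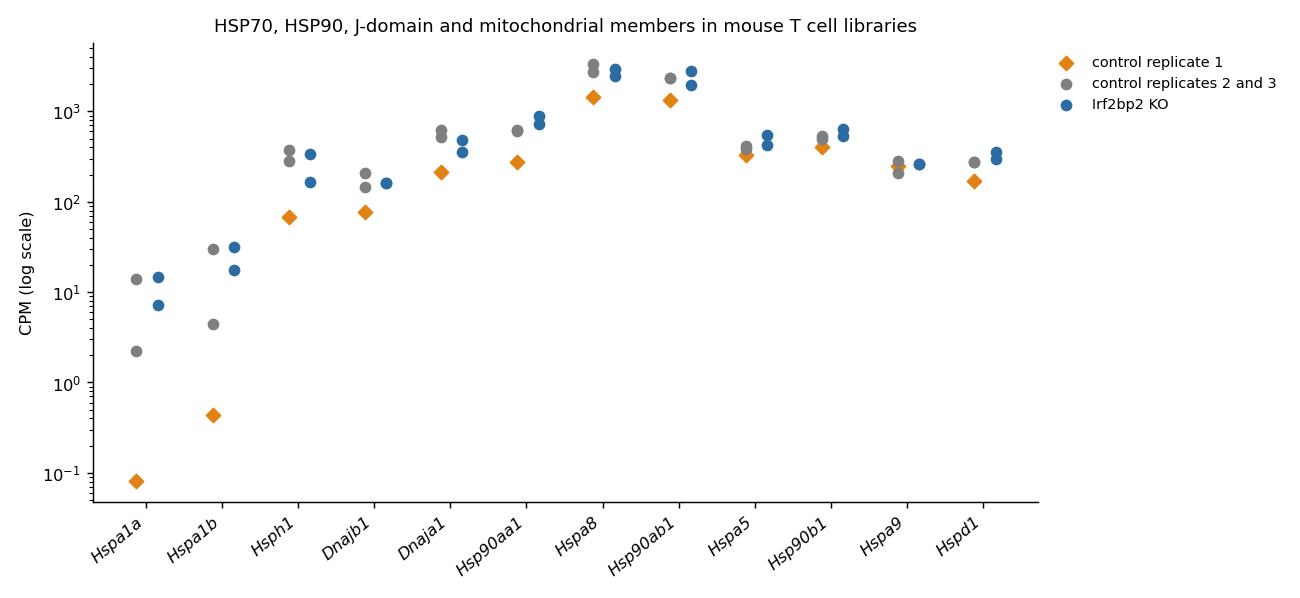
CPM (y axis, log scale) of 12 HSP70, HSP90, J-domain and mitochondrial members (x axis) in the 5 mouse T cell libraries; the orange diamond is control replicate 1, grey points are control replicates 2 and 3, and blue points are the 2 Irf2bp2 KO libraries. Control replicate 1 lies lowest for 11 of the 12 genes, most of all for Hspa1a and Hspa1b, and Hspa9 is the exception.

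Control replicate 1 was the low library for this set. Hsph1, an inducible HSP110, had 68.3, 283 and 375 CPM in the controls and 165 and 339 CPM in the knockouts, so both knockout values lay within the range of the controls (log2 fold change 0.06, SE 0.65). Dnajb1 had 77.0, 146 and 207 CPM in the controls and 159 and 163 CPM in the knockouts (0.17, SE 0.37). Dnaja1 had 214, 516 and 623 CPM in the controls and 357 and 484 CPM in the knockouts (-0.10, SE 0.42). Each of these 3 genes is known to respond to heat, and in each the lowest of all 5 values belonged to control replicate 1.

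Hspa8 had 1447, 3383 and 2732 CPM in the controls and 2486 and 2948 CPM in the knockouts (log2 fold change 0.11, SE 0.34). Among the 54 tested members with at least 10 CPM in the controls on average, 6 differed between controls by 2-fold or more (11.1%, against 6.70% of 8875 genes), namely Hspa1b, Hspa8, Hsph1, Hsp90aa1, Dnaja1 and Dnajb1, and all 6 were lowest in control replicate 1, which was the lowest control for 57 of the 595 such genes in all. Control replicate 1 was lowest for 32 of these 54 members (59.3%), for 19 of 41 co-chaperones (46.3%) and for 24.9% of all genes. The HSP90 co-chaperones followed, as in Stip1, the adaptor between HSP70 and HSP90 (125, 352 and 325 CPM in the controls, 198 and 317 CPM in the knockouts). The summed level of the set was 9027, 13785 and 13330 CPM in the controls and 12042 and 14361 CPM in the knockouts, so control replicates 2 and 3 lay within the range of the knockouts and control replicate 1 below it, and the origin of its low level was not tested. Without this library the members still gave 0 calls, and the calls of all genes fell from 17 lower and 379 higher to 1 and 6. They were 35 and 532 without control replicate 2, and 32 and 357 without control replicate 3. The calls of all genes also fell without either knockout library, which leaves 1 in that group and is not a like removal. Of the controls left out in turn, only control replicate 1 gave such a fall, and its cause was not tested.

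Hsp90aa1 stood without overlap between the groups. It had 273, 609 and 623 CPM in the controls and 727 and 882 CPM in the knockouts, above every control, yet it did not pass the test (log2 fold change 0.68, SE 0.35, adjusted p 0.407), and without control replicate 1 its estimate was 0.39. Hsp90ab1 had 1344, 2359 and 2362 CPM in the controls and 1961 and 2816 CPM in the knockouts, with overlap (0.24, SE 0.29). Hsp90b1 had 399, 540 and 497 CPM in the controls and 537 and 641 CPM in the knockouts (0.30, SE 0.17). Hspa5 had 333, 385 and 413 CPM in the controls and 420 and 545 CPM in the knockouts, without overlap (0.35, SE 0.17, adjusted p 0.374).

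The gene nearest to a call on the upper side was Hspa4l, an HSP110-type protein known from testis. It had 23.997, 38.3 and 39.4 CPM in the controls and 54.9 and 74.4 CPM in the knockouts, both above every control (log2 fold change 0.93, SE 0.25, adjusted p 0.123; 0.0165 by DESeq2, where it stays under the fold threshold). Dnajc15, a regulator of mitochondrial protein import and respiration, was nearest on the lower side, with 59.5, 61.2 and 45.8 CPM in the controls and 29.7 and 34.9 CPM in the knockouts (-0.78, SE 0.18, adjusted p 0.0773). Hspa12a, a distant HSP70 relative, had 1.24, 2.19 and 2.19 CPM against 0.78 and 0.82 CPM (-1.22, SE 0.45, adjusted p 0.252). Dnajb5 had 17.7, 21.2 and 19.0 CPM against 14.8 and 13.5 CPM (-0.45, SE 0.18, adjusted p 0.277). Dnajb3, a germ cell gene at under 1 CPM throughout, had the largest estimate of all members (2.07, SE 0.87, adjusted p 0.309).

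The cytosolic chaperonin was even between the mouse groups. Its 9 tested genes all had overlapping groups, with log2 fold changes between -0.09 and 0.09 apart from the barely expressed Cct6b (-0.51, SE 0.76), and a median of -0.04. Cct2 had 312, 371 and 345 CPM in the controls and 314 and 341 CPM in the knockouts (-0.07, SE 0.14). Cct3 (-0.05, SE 0.23), Cct4 (-0.09, SE 0.17), Cct5 (-0.04, SE 0.17), Cct6a (0.09, SE 0.17), Cct7 (0.06, SE 0.14), Cct8 (0.02, SE 0.16) and Tcp1 (0.03, SE 0.16) lay as close to 0. The family summed to 1758, 2324 and 2043 CPM in the controls and 1936 and 2105 CPM in the knockouts. Per kilobase the order in control T cells again began with Hsp90ab1 (674 CPM per kb, SD 196, n = 3) and Hspa8 (586, SD 229), which did not differ beyond their SDs and changed places with the principal transcript length (Hspa8 1053, Hsp90ab1 802), and Cct2 (134), Hsp90aa1 (128), Hsp90b1 (119) and Cct5 (102) followed.

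The other members named in mouse T cells were not called, and the groups of Hspd1, Dnaja3, Dnajc7 and Hspb11 did not overlap. The mitochondrial chaperonin genes had Hspd1 at 171, 274 and 274 CPM against 300 and 358 CPM (log2 fold change 0.45, SE 0.23, adjusted p 0.405) and Hspe1 at 120, 184 and 115 CPM against 133 and 150 CPM (0.02, SE 0.23). Hspa4 (-0.09, SE 0.13), Hspa9 (0.08, SE 0.16), Dnaja3 (0.21, SE 0.13), Dnajb2 (0.33, SE 0.25), Dnajb6 (-0.03, SE 0.12), Dnajb11 (0.00, SE 0.14), Dnajc3 (-0.03, SE 0.14), Dnajc8 (-0.01, SE 0.14) and Dnajc9 (0.10, SE 0.12) lay closer to 0 than Hspd1. Dnajc6 had an estimate of 0.56 (SE 0.36) and Dnajc7, a cochaperone with tetratricopeptide repeats, of -0.20 (SE 0.12, adjusted p 0.492). Hspb1 (1.23, SE 1.21) and Hspb6 (0.28, SE 0.34) were low, and Hspb11, which despite its symbol encodes an intraflagellar transport protein, had 6.83, 8.82 and 6.94 CPM against 5.74 and 4.56 CPM (-0.55, SE 0.27).

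The mouse co-chaperones gave 0 calls among 45 tested genes by edgeR, with 1 lower and 3 higher at an unadjusted p under 0.05 and a median of -0.09, and Hsf1 had 71.7, 88.6 and 73.3 CPM in the controls and 67.7 and 76.2 CPM in the knockouts (-0.12, SE 0.15). The lowest adjusted p values of the list belonged to the nucleotide exchange factors Bag2 (2.43, 6.42 and 3.13 CPM against 11.25 and 14.7 CPM; 1.69, SE 0.43, adjusted p 0.110) and Bag3 (8.64, 7.69 and 11.6 CPM against 17.3 and 15.9 CPM; 0.84, SE 0.24, adjusted p 0.139). The 22 endoplasmic reticulum stress genes gave 0 calls, with 0 lower and 3 higher at an unadjusted p under 0.05 and a median of 0.18, and the lowest adjusted p was that of Atf6 at 20.1, 20.6 and 22.0 CPM against 36.6 and 32.8 CPM (0.73, SE 0.14, adjusted p 0.0529). Bag2, Bag3 and Atf6 were named after their values were seen. At the same unadjusted cut-off, 922 of all 15350 genes tested were lower and 1566 higher.

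The upstream sequences of the inducible pair show how alike these genes are. In RefSeq's mouse promoter windows (GRCm38.p6), the 250 bases before the start of Hspa1a (chr17:34972157-34972406, minus strand) and of Hspa1b (chr17:34959239-34959488, minus strand) were 98.8% identical, with 3 differing bases, shown in capitals.
Hspa1a: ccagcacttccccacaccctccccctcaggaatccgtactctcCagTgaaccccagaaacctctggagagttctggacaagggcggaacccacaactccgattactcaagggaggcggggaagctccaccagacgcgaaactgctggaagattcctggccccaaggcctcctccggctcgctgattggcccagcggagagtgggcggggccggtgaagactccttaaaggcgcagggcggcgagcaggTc
Hspa1b: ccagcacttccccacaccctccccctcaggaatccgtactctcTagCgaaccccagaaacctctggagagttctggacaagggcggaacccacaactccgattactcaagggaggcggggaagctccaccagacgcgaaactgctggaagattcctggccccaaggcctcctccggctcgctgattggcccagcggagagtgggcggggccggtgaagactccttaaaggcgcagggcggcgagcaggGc
The levels of Hspa1a and Hspa1b followed each other across the 5 libraries. They ran from 0.08 and 0.43 CPM in control replicate 1 to 14.8 and 32.0 CPM in knockout replicate 1. The reads of this pair may be split arbitrarily between the genes, so their levels are not independent measurements. Whether the like upstream sequences play a part in these levels was not tested.

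A heat shock element, the site that HSF1 binds, was searched as 3 units in alternating direction, GAA, TTC and GAA or TTC, GAA and TTC, each 2 bases apart, which covers both strands. It was found in the windows (250 bases before to 50 after a start) of 4 of the 67 mouse members with a window, Dnajb6, Hspd1, Hspe1 and Hsph1 (5.97%, against 0.662% of 27025 genes). Windows of the same length around the annotated human gene starts held it in 3 of 84 members, DNAJA1, HSPA6 and HSPE1 (3.57%, against 0.4% of 20020 genes). These human windows lay at the outermost annotated end of each gene, so the shares of the 2 species are not like for like. For human HSPD1 that end is chr2:197516737, away from the element upstream of HSPE1. Its absence from the human list therefore does not say that HSPD1 lacks the element. The exact spelling is absent from the Hspa1a and Hspa1b windows, and no match says no more than that these letters are not there. The elements upstream of the mitochondrial chaperonin genes and of HSPA6 are printed with the matched units in capitals, for mouse Hspe1 at chr1:55088051-55088084 (plus strand, GRCm38.p6), for human HSPE1 at chr2:197500060-197500093 (plus strand, hg38), for mouse Dnajb6 at chr5:29735844-29735872 (plus strand, GRCm38.p6) and for human HSPA6 at chr1:161524458-161524486 (plus strand, hg38).
Hspe1: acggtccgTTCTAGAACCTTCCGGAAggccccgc
HSPE1: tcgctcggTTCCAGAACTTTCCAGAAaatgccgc
Dnajb6: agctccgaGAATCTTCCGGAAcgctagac
HSPA6: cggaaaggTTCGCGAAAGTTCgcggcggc
In the mouse the same element, read on the minus strand, is upstream of Hspd1, which is transcribed away from Hspe1, and both species carried 4 units in a row there. Hspd1 and Hspe1 stood at estimates of 0.45 and 0.02 on the log2 scale in knockout T cells, and HSPD1 and HSPE1 at -0.01 and -0.22 after knockdown.

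Values of the same genes in the 2 systems stood side by side without a test of their difference. Of 63 member symbols tested in both species, 1 had groups that did not overlap in the same direction (1.59%, against 12.4% of 9900 symbols tested in both), DNAJA2, which was lower in both (-0.98 with a call in J.gamma1, and for Dnaja2 169, 187 and 177 CPM against 151 and 158 CPM in mouse T cells, -0.20, SE 0.12, adjusted p 0.493). HSP90AA1 and DNAJC24 had groups that did not overlap in opposite directions (3.17%, against 10.9%). The other genes called in J.gamma1 had mouse estimates of -0.07 (Cct2), 0.10 (Dnajc9), 0.56 (Dnajc6), 0.24 (Hsp90ab1), -0.09 (Hspa4) and 0.33 (Dnajb2), all with overlapping groups. The systems differ in species, in the leukemic state of the cells and in the way IRF2BP2 was removed, which cannot be told apart here.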

How the data were processed

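Gene counts deposited by the authors (whole-number reads per Ensembl gene, not normalized) were used for 4 J.gamma1 and 5 mouse T cell libraries. The submitters' processing notes name HISAT2 2.2.0, StringTie, hg38 and mm10; the strand used in counting is not given in the sources used here. Symbols, coordinates and coding status came from the reference annotation. Each table was fitted as a whole in edgeR 4.0.16 (R 4.3.3) after filterByExpr and TMM scaling, with the quasi-likelihood test and Benjamini-Hochberg adjustment, on 2 and 3 residual degrees of freedom. Calls had adjusted p under 0.05 with log2 fold changes reaching 0.5 (human) or 1 (mouse) in either direction. SE is the log2 fold change divided by the square root of F. No libraries were alike within sampling noise. Alternatives were DESeq2 1.42.0, other scalings and filters, a replicate block and leaving out each library. The tests were checked on simulated data. Named genes were, by rule, all called members, in each family the 3 highest per kilobase and the largest rise and fall, the chaperonin subunits, the inducible, constitutive and organelle members and HSF1; others were named after their values were seen. The members and lists were chosen with earlier results of these data known.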

Additional observations from a re-analysis of the deposited data

Results flagged for a closer look

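HSP90AA1 and DNAJC24 had groups that did not overlap in either system and moved in opposite directions. HSP90AA1 had a log2 fold change of -0.40 in J.gamma1 cells and 0.68 in mouse T cells, and DNAJC24, which takes part in diphthamide synthesis, of -0.22 and 0.22. None of these values passed the test, and the differences between the systems were not tested.

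Outside the protein-coding set, the pseudogene row DNAJC19P5 had 2 and 5 counts in sh-NC and 25 and 22 counts in sh-IRF2BP2 (log2 fold change 2.68, adjusted p 0.0400 by edgeR's quasi-likelihood test). It was 1 of 134 rows with such symbols that do not code for protein, of which 19 were tested. Its parent gene DNAJC19 had 37.6 and 33.0 CPM against 26.8 and 26.7 CPM.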

How the results depend on the processing

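CCT2, DNAJA2, DNAJC9 and DNAJC6 kept their direction and their call under the alternatives run, apart from the fold threshold of 1, which DNAJA2 and DNAJC6 did not reach. With that threshold 2 members were called lower and 0 higher in J.gamma1 cells. Once rows with as little as 1 count were kept, 0 members were called higher, against 319 of all 27082 genes. The calls of HSP90AB1, HSPA4 and HSF1 were lost without either sh-IRF2BP2 library, and that of DNAJB2 without replicate 2. All 4 were also lost with rows of as little as 1 count kept (adjusted p 0.0795, 0.0770, 0.0598 and 0.0984), and that of HSP90AB1 with all rows (0.0525). Leaving out 1 library at a time, which leaves 1 library in a group, gave a median log2 fold change over the members of -0.12 to -0.041. Without sh-NC replicate 1 the log2 fold change of CCT4 was -0.50. Without sh-NC replicate 2 those of CCT6A, DNAJA3, HSP90AA1 and DNAJC3 were -0.55, -0.53, -0.53 and -0.70. CCT4 passed with upper-quartile scaling (-0.50, adjusted p 0.0434), as did DNAJC3, which DESeq2, a filter of 10 counts, counts divided by 2 and the replicate block called too. The labels do not say whether libraries of the same number share an origin, so whether they were paired cannot be told here. Deviations of same-numbered libraries correlated at 0.225 in J.gamma1 and at 0.151 and -0.161 in mouse. With the number as a replicate block, 8 members were called lower and 1 higher in J.gamma1. Of all 15819 genes, 1174 were then called lower and 1293 higher, against 793 and 864 without the block. HSPB1 (-0.52, adjusted p 0.0188) and DNAJC3 (-0.55, adjusted p 0.00606) were among the lower members. In mouse 1 member was called higher (Hspa4l, 1.08, adjusted p 0.0242), against 407 of all 15350 genes. The block turned Dnaja1 to 0.32, Dnajb11 to -0.060, Dnajc3 to 0.059 and Hspe1 to -0.069.

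Estimates near 0 changed sign, and the cause was not tested. DNAJA1 stood at -0.026 with at least 1 count, -0.0078 with at least 10 counts in every library, -0.0091 with counts divided by 2 and -0.049 with upper-quartile scaling, and DNAJC8 at -0.011 with at least 1 count and -0.034 with upper-quartile scaling. With at least 10 counts in every library Cct3 stood at 0.0010, Cct5 at 0.0052, Dnajb6 at 0.012, Dnajc3 at 0.012 and Dnajc8 at 0.037. Over the libraries left out in turn, log2 fold changes that changed sign ran as follows in J.gamma1: DNAJA1 -0.070 to 0.078, DNAJA3 -0.53 to 0.18, DNAJB1 -0.31 to 0.033, DNAJC8 -0.023 to 0.045, HSPA1A -0.11 to 0.44, HSPA5 -0.019 to 0.41, HSPD1 -0.15 to 0.10, TCP1 -0.43 to 0.020, HSPH1 -0.11 to 0.093. In mouse T cells they ran as follows: Cct2 -0.15 to 0.013, Cct3 -0.27 to 0.15, Cct4 -0.17 to 0.089, Cct5 -0.15 to 0.13, Cct6a -0.0021 to 0.25, Cct6b -1.59 to 0.068, Cct7 -0.028 to 0.16, Cct8 -0.088 to 0.14, Dnaja1 -0.43 to 0.20, Dnajb1 -0.12 to 0.52, Dnajb11 -0.073 to 0.13, Dnajb6 -0.14 to 0.022, Dnajc3 -0.098 to 0.052, Dnajc8 -0.11 to 0.088, Hsp90ab1 -0.066 to 0.46, Hspa8 -0.17 to 0.40, Hspa9 -0.011 to 0.19, Hspe1 -0.11 to 0.29, Tcp1 -0.074 to 0.14, Hsf1 -0.22 to 0.0057, Hsph1 -0.58 to 0.51. With 2 or 3 libraries a group, small changes were not detectable.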
